A study of Mus musculus with 32 samples.

Results

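The cytochrome P450 genes of subfamilies Cyp1a, Cyp1b, Cyp2a to Cyp2u and Cyp3a were followed through mouse livers that differed in genotype, diet and feeding state. Members were the protein-coding genes whose symbol begins with Cyp1a, Cyp1b, Cyp2 and a letter, or Cyp3a, pseudogenes left out. The count table held 47 of the 61 such genes in the annotation, and 37 of them reached 1 CPM, a count scaled to the size of its library, in at least 4 libraries, out of 13960 genes that did so among the 20076 in the table. The other 10 members of the table stayed at or below 15 counts in each of the 30 libraries used, and these were Cyp1a1, Cyp2a4, Cyp2ab1, Cyp2b13, Cyp2c65, Cyp2d11, Cyp2d12, Cyp2g1, Cyp2j8 and Cyp3a44.

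Livers came from male C57BL/6J mice, aged 7.5 to 16 in labels that give no unit of time. MCAD-KO mice carry a knockout of Acadm, the gene of medium-chain acyl-CoA dehydrogenase and WT mice were littermates. Mice of both genotypes ate a low-fat (LF) control diet or a high-fat (HF) diet for 6 weeks and were killed fed or after 16 h of fasting, which makes 8 groups of 4 mice. Total liver RNA was read from the 3′ end of transcripts, so that counts were not divided by gene length, and the 30 libraries held 2031053 to 4292200 counts each, with a median of 2899001. All levels are TMM-normalized CPM, and all adjusted p-values come from the edgeR quasi-likelihood test with Benjamini-Hochberg adjustment over the 13960 genes.

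Enzymes of these families sit in the membrane of the endoplasmic reticulum, carry haem, take electrons from the reductase Por and oxidize drugs, toxins, steroids, bile acids and fatty acids. In liver they lie mostly in hepatocytes around the central vein, and many are switched on by the receptors CAR (Nr1i3), PXR (Nr1i2) and the aryl hydrocarbon receptor (Ahr). Several members of the rodent Cyp2 families differ between the sexes because of the pattern of growth hormone release.

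A pair of libraries stood apart and was left out. The library labelled KO HF fasted replicate 4 had a summed CPM of 41890 over 12 heart markers, against 0 to 650.1 in the 30 libraries used, and its 37 members summed to 244.7 CPM against 8564 to 17420. The library labelled WT LF fed replicate 2 had a different set of Cyp transcripts, described at the end. The groups KO HF fasted and WT LF fed therefore have 3 mice each. Of the 30 libraries, WT HF fasted replicate 2 held 17480 summed CPM of acinar pancreas markers and KO HF fed replicate 1 held 2563, with at most 54.91 in the rest. Acadm had 26 to 94 counts in the 16 libraries labelled KO and 566 to 2752 in the 16 labelled WT. All 10 hepatocyte markers were measured, at a summed 58140 to 90290 CPM.

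The 37 members together took 1.21% of all counts, and the 5 highest made up 55.3% of that. Cyp2e1, which oxidizes ethanol and acetone, led with a mean of 3117 CPM. Next came Cyp3a11, the main drug-oxidizing Cyp3a enzyme, at 987.8 CPM, Cyp2d9, a male-predominant steroid hydroxylase, at 978.3 CPM, Cyp2f2, a naphthalene-oxidizing enzyme of periportal cells, at 908.9 CPM, and Cyp3a25 at 690.4 CPM. By position the Cyp2c genes lie on chromosome 19, Cyp2d on 15, Cyp3a on 5, Cyp2j on 4 and Cyp2a, Cyp2b, Cyp2e1 and Cyp2f2 on 7. A total of 20 members had a mean of at least 100 CPM, 4 lay between 10 and 100, and 13 lay below 10. These orders compare reads counted from the 3′ end, and close copies can lose reads. The leading member of each other subfamily, by mean CPM, was Cyp1a2 at 295.2, Cyp1b1 at 0.504, Cyp2a12 at 528.2, Cyp2b9 at 2.79, Cyp2c29 at 584.6, Cyp2j5 at 646.1, Cyp2r1 at 8.74, Cyp2s1 at 0.537 and Cyp2u1 at 2.56 CPM. Cyp1b1 and Cyp2s1 had at most 5 and 7 counts in any library, so a change in them was not detectable at this depth unless it was large.

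**Figure D1:**
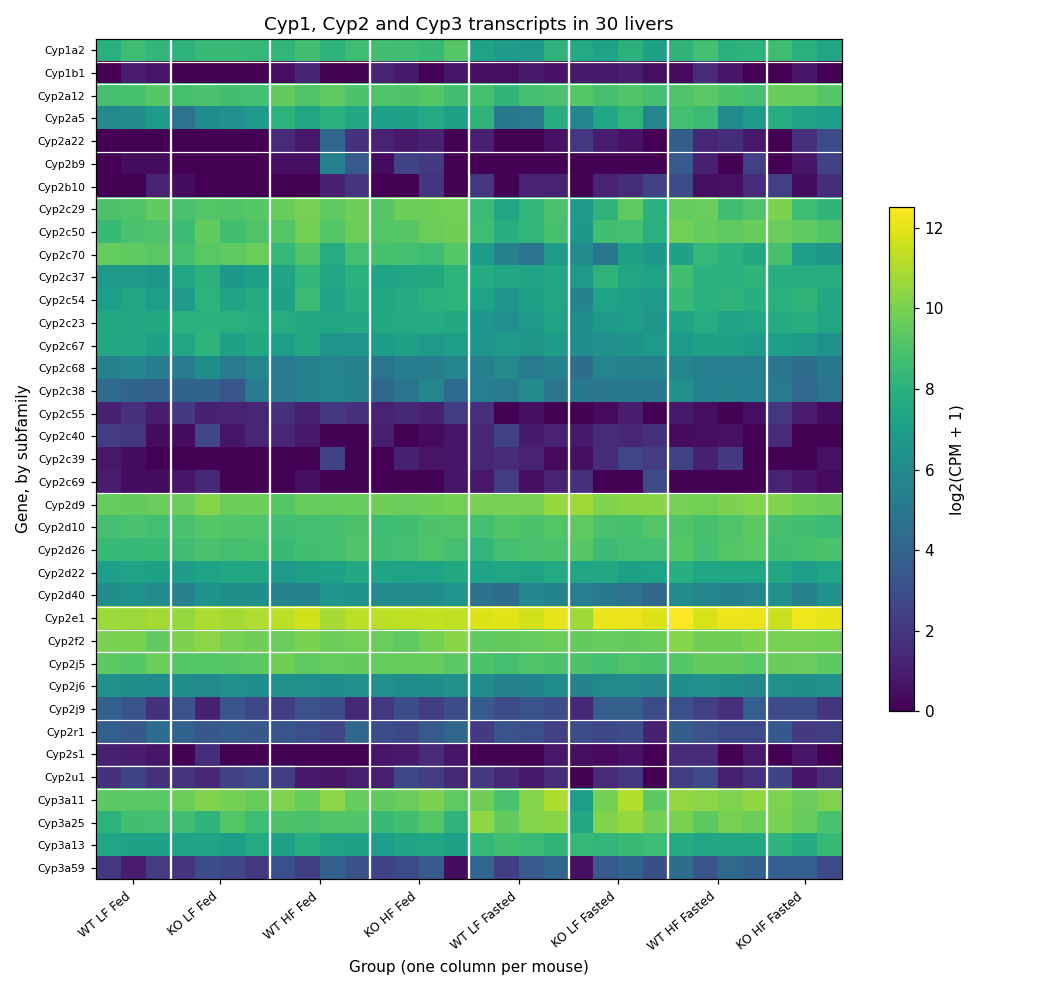
Level of each of the 37 genes (rows, grouped by subfamily) as log2(CPM + 1) in each of 30 mice (columns, grouped by genotype, diet and feeding state). Cyp2e1 was brighter in the fasted columns, and Cyp2c70 was darker in the LF fasted columns (26.44 to 135.7 CPM) than in the LF fed columns (457.2 to 823.5 CPM).

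Close copies limit how far single Cyp2c, Cyp2d and some Cyp2a and Cyp3a genes can be separated. Of all 50-base words within 500 bases of the 3′ ends of their transcripts, another gene also held 62.4% for Cyp2c40, 51.2% for Cyp2c67 and for Cyp2c68, and 38.4% for Cyp2c69. The share was 30.4% for Cyp2c37, 27.5% for Cyp2c50 and 27.1% for Cyp2c54, against 0% for Cyp2c70, Cyp2c23 and Cyp3a13. It was 33.5% for Cyp2d40, 32.2% for Cyp2d9, and 19.2% for Cyp3a25, most often shared with Cyp3a59. For Cyp2a5 it was 29.9% and for Cyp2a12 16.4%, most often shared with Cyp2a4 and with Cyp2a22. Only uniquely assigned reads were counted, so genes that share such words can lose reads, and their levels are uncertain.

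Upstream sequence is shown for 3 neighbours in the Cyp2c cluster of chromosome 19, because Cyp2c37 and Cyp2c50 were higher on HF and Cyp2c70 fell on fasting in LF mice. Each run is the 250 bases before the RefSeq start in build GRCm38.p6, written 5′ to 3′ in the direction of the gene. They are Cyp2c37 at chr19:39992174-39992423 (plus strand), Cyp2c50 at chr19:40089429-40089678 (plus strand) and Cyp2c70 at chr19:40187287-40187536 (minus strand), and capitals mark CAAAGTNCA, the core of sites bound by the hepatocyte factor HNF4A.
Cyp2c37: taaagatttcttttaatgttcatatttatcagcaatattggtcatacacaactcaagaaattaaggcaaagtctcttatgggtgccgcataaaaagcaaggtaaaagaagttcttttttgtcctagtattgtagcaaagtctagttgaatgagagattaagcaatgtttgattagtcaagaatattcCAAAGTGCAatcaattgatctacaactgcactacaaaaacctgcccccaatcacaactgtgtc
Cyp2c50: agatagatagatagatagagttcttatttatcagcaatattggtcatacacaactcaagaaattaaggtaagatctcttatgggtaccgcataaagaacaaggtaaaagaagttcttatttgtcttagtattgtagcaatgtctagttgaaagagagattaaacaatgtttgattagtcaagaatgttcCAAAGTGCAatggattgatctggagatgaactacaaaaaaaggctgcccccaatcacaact
Cyp2c70: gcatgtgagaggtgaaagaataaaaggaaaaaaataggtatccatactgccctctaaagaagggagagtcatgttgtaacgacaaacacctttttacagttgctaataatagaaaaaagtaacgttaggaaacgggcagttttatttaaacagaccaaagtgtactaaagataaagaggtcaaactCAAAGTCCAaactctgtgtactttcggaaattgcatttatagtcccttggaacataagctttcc

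The windows of Cyp2c37 and Cyp2c50 were 84.3% identical after alignment, and either was 50% to 50.7% identical to that of Cyp2c70. The capital letters began 63, 61 and 64 bases before the start. Searched on both strands, CAAAGTNCA stood in the windows of 9 of the 33 members with a RefSeq entry and in 1.19% of 32851 windows of all genes. A member was counted if any of its windows matched, while the share of all genes is per window. Apart from Cyp2d26 and Cyp3a11, these 9 members are Cyp2c genes, some of them close copies. The nuclear receptor core AGGTCA stood in 9 of the 33 and in 14% of all, and TATAAA in 16 of the 33 and in 12.4% of all. These letters were chosen after the sequences had been read, and a match is not a measured site.

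Fasting changed the family in both directions. Of the 37 members 7 were higher in fasted mice, beside 7.99% of all genes tested, and 8 were lower, beside 7.7%. Of these 8, Cyp2c55 passed the filter only through fed mice, where it was high, so its difference is a description. The median log2 fold change was 0.0695 over the members and -0.00515 over all genes. Cyp2e1 and 3 of the 4 Cyp3a genes rose, and Cyp2c70, Cyp2c23, Cyp2c67 and Cyp1a2 fell.

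Cyp2e1 ranged from 1461 to 3226 CPM in the 15 fed mice, with a median of 2087, and from 1687 to 5867 in the 15 fasted mice, with a median of 4267. It was 1.90-fold higher on fasting (log2 0.93, SE 0.11, adjusted p = 1.168e-08). The ranges overlapped on both diets. On HF the lowest fasted mouse stood at 2951 CPM and the highest fed mouse at 3226. On LF the lowest fasted mouse was below the highest fed mouse, at 1687 against 2087. That mouse, KO LF fasted replicate 1, had the lowest level of 7 of the 24 members whose mean was at least 10 CPM. The rise was called within sequencing lane 7 (log2 0.88) and within lane 8 (log2 0.98) alone.

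All 4 Cyp3a members had a positive fold change and 3 passed the test. Cyp3a13 ranged from 128.4 to 230.5 CPM in fed mice, with a median of 146.8, and from 163.5 to 424.0 in fasted mice, with a median of 301.7. It was 1.78-fold higher (log2 0.83, SE 0.09, adjusted p = 1.86e-09). Cyp3a25 ran from 272.5 to 597.7 CPM fed and from 184.5 to 1492 fasted, with medians of 427.9 and 999.4. The groups overlapped at the bottom of the fasted range, and the gene was 2.13-fold higher (log2 1.09, SE 0.20, adjusted p = 0.000406). Cyp3a59 stood at medians of 4.90 and 12.3 CPM (2.29-fold higher, adjusted p = 0.0111). Cyp3a11 did not pass, with 625.6 to 1317 CPM fed and 126.7 to 2194 fasted, so its fasted range enclosed the fed range.

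Of the 5 Cyp2d members, Cyp2d9 was higher and Cyp2d40 lower in fasted mice. Cyp2d9 had medians of 802.2 CPM fed and 1061 CPM fasted (log2 0.44, SE 0.08, adjusted p = 0.0001005). Cyp2d40 had medians of 74.3 and 44.41 CPM (log2 -0.67, SE 0.14, adjusted p = 0.00102).

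Of the 13 Cyp2c members 1 was higher and 4 were lower in fasted mice, among them Cyp2c55, whose difference is a description. Cyp2c70, which makes muricholic acids in the mouse, ranged from 217.6 to 823.5 CPM fed and from 26.44 to 476.1 fasted, with medians of 555.3 and 121.7. Its log2 fold change was -1.99 (SE 0.27, adjusted p = 6.676e-06), the largest fall among the 24 members with a mean of at least 10 CPM. Cyp2c23, also named Cyp2c44 and an arachidonic acid epoxygenase, had medians of 195.6 and 147.2 CPM (log2 -0.56, SE 0.09, adjusted p = 8.177e-06). Cyp2c67 had medians of 140.9 and 107.6 CPM (log2 -0.52, SE 0.11, adjusted p = 0.000364). Cyp2c38 was the member that rose, with medians of 19.92 and 33.01 CPM (log2 0.52, SE 0.17, adjusted p = 0.0346), a call made in 18 of the 30 fits without a library and lost with no count filter.

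Among the remaining roles, Cyp1a2, which oxidizes caffeine and is an aryl hydrocarbon receptor target, fell. It ran from 244.9 to 591.4 CPM fed and from 116.9 to 431.1 fasted (log2 -0.63, SE 0.14, adjusted p = 0.00204). Cyp2r1, a vitamin D 25-hydroxylase, fell from a median of 10.08 to 6.10 CPM (log2 -0.90, SE 0.22, adjusted p = 0.00258). Cyp2j5, an epoxygenase, had medians of 686.4 and 529.3 CPM and fell by 0.23 on the log2 scale (SE 0.07, adjusted p = 0.0226).

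Of the 4 members listed as CAR and PXR targets, Cyp2b10 was higher, Cyp2c55 lower, and Cyp2c29 and Cyp3a11 did not pass. Cyp2b10, the standard CAR response gene, was at 0 counts in 10 of 15 fed and in 2 of 15 fasted mice, with at most 9 and 24 counts. Its summed counts were 26 fed and 90 fasted, a ratio per depth of 3.26 with a 95% exact interval of 2.09 to 5.26 that covers counting error only (adjusted p = 0.0293). Cyp2c55 summed to 88 counts fed and 28 fasted, a ratio of 0.3 with an interval of 0.189 to 0.464. It reached 1 CPM in 14 fed and 3 fasted libraries and so passed the filter only through fed mice, where it was higher. Its difference is therefore a description. The call of Cyp2b10 was lost with DESeq2, and 23 of the 30 fits that left out a library made it.

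With sequencing lane as a term all 15 fasting members were still called. The fits within a single lane hold fewer mice, and they called 2 members in lane 7 and 11 in lane 8. Those 11 are not all among the 15. Of the 15, Cyp2b10, Cyp2c38, Cyp2c67, Cyp2d40, Cyp2j5 and Cyp3a59 were not called in lane 8. The log2 fold change in lane 7 was 1.12 for Cyp3a25, -0.52 for Cyp2c23, -0.62 for Cyp2c67 and 0.38 for Cyp2d9. It was weaker than in the main fit for, among others, Cyp2c70 (-1.44), Cyp1a2 (-0.34) and Cyp2r1 (-0.22). In lane 8 it was -2.39 for Cyp2c70, -0.91 for Cyp1a2 and -1.73 for Cyp2r1. The WT LF fed group was read in lane 8 only.

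**Figure D2:**
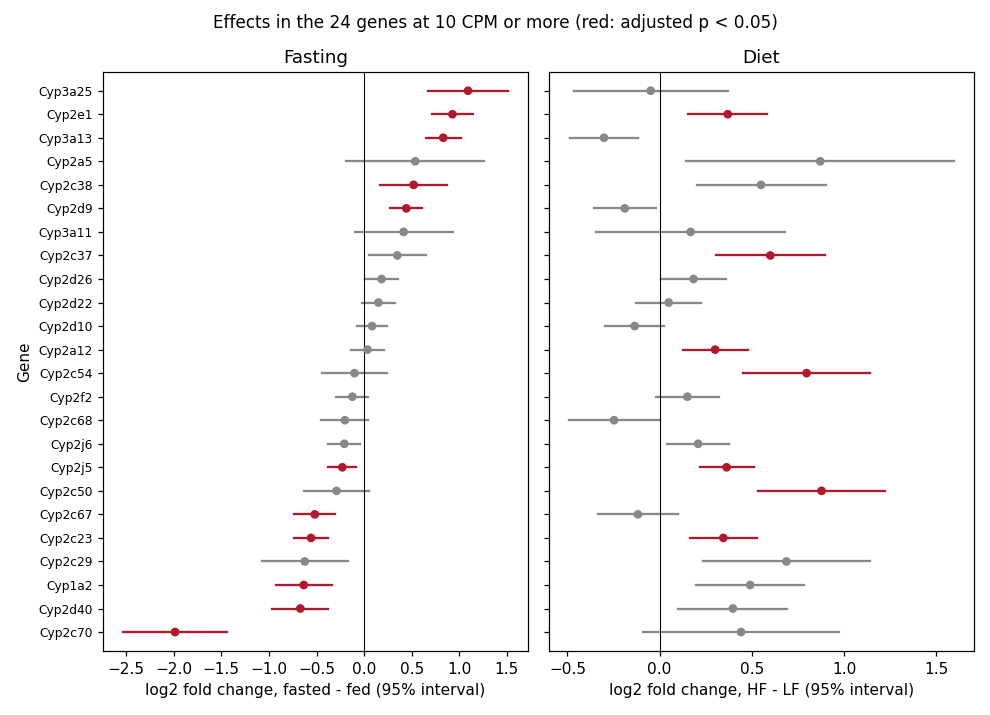
Log2 fold change (x axis) with its 95% interval for fasting (left) and for diet (right) in the 24 genes whose mean was at least 10 CPM. Points are edgeR estimates from 30 mice, red where the adjusted p was below the threshold, and Cyp2c70 lies at -1.99 for fasting and Cyp2c50 at 0.88 for diet.

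More members were higher than lower on the high-fat diet. A total of 9 of the 37 were higher on HF, beside 1.78% of all genes tested, and 2 were lower, beside 0.938%. Of these 11, Cyp2b9, Cyp2a22, Cyp2c40 and Cyp2c69 passed the filter only through the diet on which they were high, so their difference is a description. The median log2 fold change was 0.345 over the members and 0.0148 over all genes. Of the 7 members listed as pericentral, 4 passed, all of them higher.

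Cyp2c50 ranged from 101.7 to 737.8 CPM in the 15 LF mice, with a median of 421.9, and from 561.6 to 962.0 in the 15 HF mice, with a median of 764.6. It was 1.84-fold higher (log2 0.88, SE 0.17, adjusted p = 0.00311), and the ranges overlapped. Cyp2c54 ran from 47.33 to 272.0 CPM on LF and from 141.0 to 383.5 on HF (log2 0.80, SE 0.17, adjusted p = 0.00814). Cyp2c37 ran from 97.94 to 278.8 CPM on LF and from 144.9 to 430.0 on HF (log2 0.60, SE 0.14, adjusted p = 0.0193). These 3 neighbours share sequence near their 3′ ends, as given above. Cyp2e1 had medians of 2087 CPM on LF and 2951 on HF (log2 0.37, SE 0.11, adjusted p = 0.048), and its call was lost with lane as a term (adjusted p = 0.0537) and made in 8 of the 30 fits without a library.

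Some pericentral markers outside the family were also higher on HF. Of 10 tested, 3 were higher, beside 1.78% of all genes, and none was lower. Aldh1a1 (log2 0.70) and Lect2 (log2 0.70) were among the 3, and the rest of the 10 did not pass. The summed level over the whole list of pericentral markers ran from 3348 to 5769 CPM on LF and from 5083 to 6900 on HF. Of 11 periportal markers none was higher and 2 were lower, Arg1 (log2 -0.62) and Cps1 (log2 -0.78), beside 0.938% of all genes. The periportal sum ran from 6770 to 27860 CPM on LF and from 6325 to 16090 on HF. The part of these markers in the result was not tested. In bulk liver, fewer cells of a type and less RNA per cell cannot be told apart.

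Of the 4 members listed as epoxygenases, the 2 that fell on fasting were higher on HF. Cyp2j6 and Cyp2j9 were called for neither. Cyp2j6 had medians of 67.59 CPM on LF and 75.74 on HF, and Cyp2j9 of 8.31 on LF and 6.15 on HF. Cyp2j5 ran from 442.2 to 806.5 CPM on LF and from 596.4 to 881.8 on HF (log2 0.36, SE 0.07, adjusted p = 0.00192). Cyp2c23 had medians of 160.1 and 194.3 CPM (log2 0.35, SE 0.09, adjusted p = 0.0247). Cyp2a12 had medians of 469.4 and 536.9 CPM (log2 0.30, SE 0.09, adjusted p = 0.0474), a call lost with lane as a term (adjusted p = 0.0879) and made in 10 of the 30 fits without a library.

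**Figure D3:**
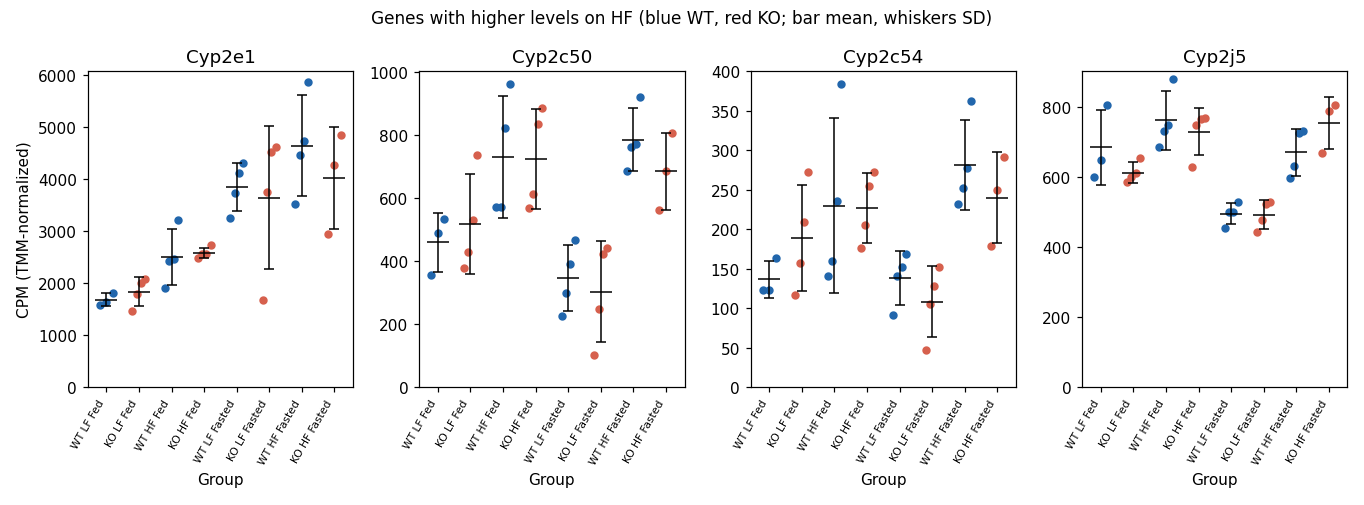
TMM-normalized CPM (y axis, from 0) of 4 genes in each of 8 groups (x axis), with a point for each mouse, the mean as a bar and the SD as whiskers, WT in blue and KO in red. Cyp2c50 was lowest in the LF fasted groups, down to 101.7 CPM, and Cyp2e1 was highest in the HF fasted groups, up to 5867 CPM.

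Of 9 members listed as female-predominant in mice, 6 were in the table and 3 passed the filter. Each of the 3 passed only through the diet on which it was high, so their differing directions are a description. Cyp2b9 had 0 counts in 13 of 15 LF mice and 1 count in the other two, and 0 counts in 3 of 15 HF mice. The HF mice reached 142 counts in WT HF fed replicate 3, 41 in WT HF fasted replicate 1 and 29 in WT HF fed replicate 4. The summed counts were 2 on LF and 270 on HF, a ratio of 133 per depth with an exact interval of 36.4 to 1100 for counting error. All 8 libraries in which it reached 1 CPM were HF. Cyp2c40 and Cyp2c69 were lower on HF, with summed counts of 86 on LF and 22 on HF for the former and of 50 and 10 for the latter. Cyp2c40 reached 1 CPM in 10 LF and 3 HF libraries, and Cyp2c69 in 5 and 1. Of the 30 fits without a library, 17 called Cyp2b9, 12 called Cyp2c40 and 9 called Cyp2c69.

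Cyp2a22, a neighbour of Cyp2a12, was also higher on HF. It was at 0 counts in 10 of 15 LF and in 2 of 15 HF mice, and summed to 17 and 169 counts, a ratio of 9.79 with an interval of 5.93 to 17.2. It reached 1 CPM in 2 LF and 10 HF libraries. Its highest counts were 57 in WT HF fed replicate 3 and 43 in WT HF fasted replicate 1, libraries in which Cyp2b9 was high as well. The calls of Cyp2b9 and Cyp2c69 were lost with lane as a term (adjusted p = 0.0541 and 0.0542), and that of Cyp2b9 with no count filter (adjusted p = 0.0524). Fitted fold changes of genes at 0 in many mice depend on the prior count and are not given.

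With the outlying WT LF fed library put back, the diet calls fell from 11 to 3, and with all 32 libraries to 0. The log2 fold changes with that library back were 0.98 for Cyp2c50, 0.90 for Cyp2c54, 0.70 for Cyp2c37 and 0.45 for Cyp2e1. That library is an LF mouse with low levels of these genes, at 16.43, 2.79, 3.41 and 314.4 CPM. Larger differences therefore followed from adding it. The fold changes of Cyp2b9, Cyp2a22, Cyp2c40 and Cyp2c69 were smaller with it. In 14 of the 30 fits without a library the count was 5 to 7. Within lane 7 alone no member was called for diet, and within lane 8 alone 4 were.

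The fasting response of 4 members differed between diets, beside 1.81% of all genes. In LF mice Cyp2c70 ran from 457.2 to 823.5 CPM fed, with a median of 669.7, and from 26.44 to 135.7 fasted, with a median of 82.44. These ranges did not overlap. In HF mice it ran from 217.6 to 594.0 CPM fed and from 98.9 to 476.1 fasted, with overlap. The log2 fasting response was 2.16 greater on HF, that is a smaller fall (SE 0.51, adjusted p = 0.0276). By group the log2 change was -2.99 in KO LF, -3.15 in WT LF, -1.02 in KO HF and -0.80 in WT HF mice. Cyp2c70 spans chr19:40153353-40187333 on the minus strand of GRCm38 in the gene annotation, which ends inside the promoter window printed above.

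Cyp2c23 showed the same kind of difference. In LF mice the fed range of 186.9 to 256.4 CPM lay above the fasted range of 70.12 to 160.1, while on HF the ranges of 173.6 to 212.1 and 147.2 to 231.1 overlapped. The log2 difference of the responses was 0.98 (SE 0.18, adjusted p = 0.00111). Cyp2c67 lay at 140.7 to 280.7 CPM fed and 68.37 to 111.0 fasted on LF, without overlap, and at 87.08 to 193.2 and 80.58 to 143.6 on HF. Its log2 difference was 0.90 (SE 0.21, adjusted p = 0.0159).

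Cyp3a13 rose on fasting and did so less on HF. In LF mice it ran from 128.4 to 198.1 CPM fed and from 290.9 to 424.0 fasted, without overlap. In HF mice it ran from 129.5 to 230.5 fed and from 163.5 to 335.5 fasted. The log2 difference was -0.66 (SE 0.18, adjusted p = 0.0421), and 12 of the 30 fits that left out a library called it. With the outlying WT LF fed library put back, Cyp2c23 was still called (adjusted p = 0.0463), and Cyp2c70 (0.0827), Cyp2c67 (0.303) and Cyp3a13 (0.051) were not.

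**Figure D4:**
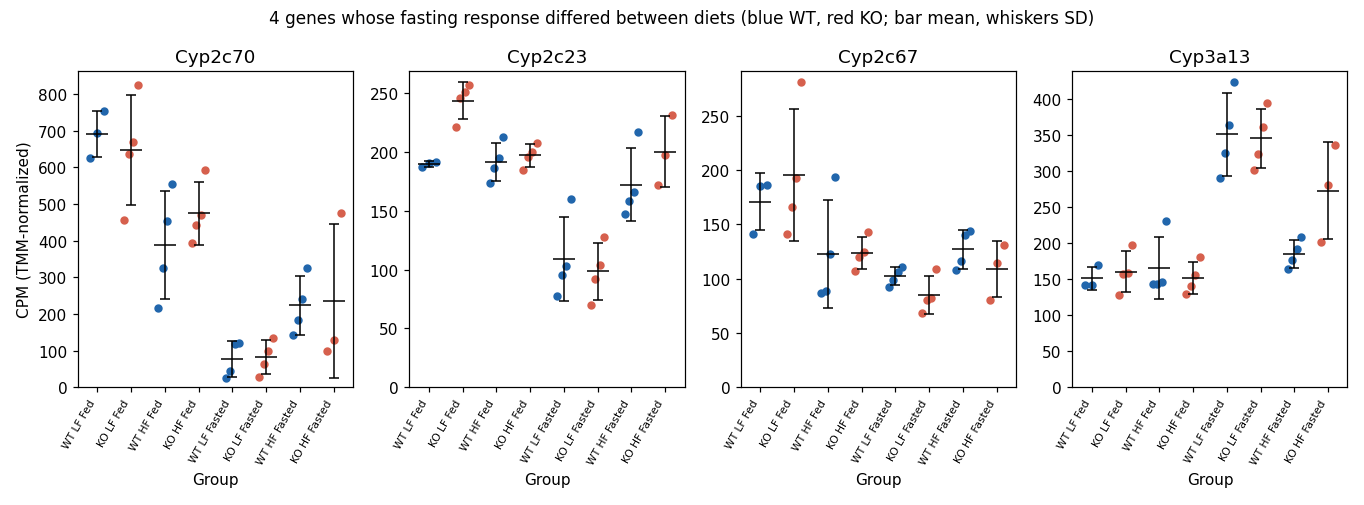
TMM-normalized CPM (y axis, from 0) in each of 8 groups (x axis) for the 4 genes whose fasting response differed between diets, with a point for each mouse, the mean as a bar and the SD as whiskers, WT in blue and KO in red. Cyp2c70 on LF dropped from at least 457.2 CPM fed to at most 135.7 CPM fasted, and on HF the ranges overlapped.

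The 14 members called for neither fasting, diet nor their interaction were Cyp3a11, Cyp2f2, Cyp2c29, Cyp2c39, Cyp2c68, Cyp2d10, Cyp2d22, Cyp2d26, Cyp2a5, Cyp2j6, Cyp2j9, Cyp2u1, Cyp2s1 and Cyp1b1. Averaged over diets and genotypes, the 95% interval of the log2 fasting change was -0.08 to 0.24 for Cyp2d10 and -0.29 to 0.04 for Cyp2f2. By group Cyp2f2 changed by -0.49 in KO LF, where it was called (adjusted p = 0.0387), and by -0.27 in WT LF, 0.08 in KO HF and 0.19 in WT HF mice. It was -1.07 to -0.17 for Cyp2c29, a phenobarbital-inducible gene (log2 -0.62, adjusted p = 0.0546), and -0.19 to 1.26 for Cyp2a5.

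Single contrasts gave fewer calls on HF. Fasting called 9 members in KO LF mice (10.9% of all genes) and 7 in WT LF mice (5.87%). On HF it called 1 member in KO mice, Cyp3a13 (0.415% of all genes), and 1 in WT mice, Cyp2e1 (0.358%). Cyp2c39 was called in KO LF mice, where it was at 0 counts in all 4 fed mice and at 1, 8, 10 and 9 counts in the fasted mice. It reached 1 CPM in 2 fed and 9 fasted libraries, so this too is a description. Diet called no member in KO fed mice (0.00716% of all genes) or WT fed mice (0.0645%), where edgeR gave 5 and 9 members an unadjusted p under 0.05, beside 7.22% and 5.17% of all genes, and DESeq2 called 0 and 1. In fasted mice it called 3 in KO (1.28%), which were Cyp2c23, Cyp2j5 and Cyp2d40, and 1 in WT (0.845%), Cyp3a13. These contrasts share control mice, and no difference between genotypes was drawn from them.

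Genotype changed no member past the threshold. Of all genes 0.00716% were called, which is Acadm itself, and of the 37 members edgeR gave 2 an unadjusted p under 0.05 (3.27% of all genes) and called 0, as did DESeq2. Within each diet and feeding state the calls were again 0, with 0.00716% of all genes called in each, and 0 calls by DESeq2. An unadjusted p under 0.05 was found for 2 members in LF fed mice (4.16% of all genes), 0 in LF fasted (5.71%) and 2 in HF fed mice (2.96%). In HF fasted mice it was found for 7 of 37 members beside 2.41% of all genes, 3 of them higher and 4 lower in KO. The median log2 difference there was -0.226 over the members and -0.0113 over all genes, with 27 of 37 members below 0. Of the 24 members with a mean of at least 10 CPM, the log2 fold change of KO over WT lay between -0.43 and 0.17, and the 95% interval stayed within -0.5 and 0.5 for 18. The interval of Cyp2e1 was -0.25 to 0.18 and that of Cyp2c70 was -0.45 to 0.61, so a genotype difference of the size seen on fasting lay outside both. That of Cyp2a5, which hydroxylates coumarin, was -1.06 to 0.39, so a larger difference remains possible there. The genotype by fasting and genotype by diet terms called 0 members and 0% of all genes, with 1 and 4 members at an unadjusted p under 0.05 in edgeR (4.82% and 3.66% of all genes) and 0 calls by DESeq2.

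Summed by subfamily, as a description with no test, Cyp2c was lowest in LF fasted mice. It stood at 1378 ± 342.4 CPM (SD, n = 4) in WT and 1261 ± 516.6 (n = 4) in KO, against 2421 ± 101.5 (n = 3) in WT LF fed and 2591 ± 463.3 (n = 4) in KO LF fed mice. On HF the sum was 2617 ± 369.9 (n = 4) in WT fasted and 2824 ± 676.2 (n = 4) in WT fed mice, and 2331 ± 801.6 (n = 3) in KO fasted and 2828 ± 424.0 (n = 4) in KO fed mice. Cyp3a on LF stood at 1181 ± 65.83 CPM (n = 3) in WT fed, 2643 ± 774.7 (n = 4) in WT fasted, 1503 ± 133.5 (n = 4) in KO fed and 2278 ± 1411 (n = 4) in KO fasted mice. On HF it stood at 1688 ± 272.5 in WT fed, 2401 ± 239.9 in WT fasted and 1386 ± 320.0 in KO fed mice (n = 4 each) and at 2059 ± 327.5 (n = 3) in KO fasted mice. The group means of Cyp2d ran from 1790 to 2564 CPM. The sum of all members ran from 9314 to 13170 CPM in fed and from 8379 to 17180 in fasted mice.

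Markers of other liver cells were followed beside these results. On fasting 1 of 8 Kupffer cell markers was lower, Adgre1 (log2 -0.61), and 2 of 7 stellate cell markers were lower, Col3a1 (log2 -1.44) and Lrat (log2 -0.72). Of all genes 7.7% were lower on fasting. On HF Col3a1 was higher (log2 1.05), beside 1.78% of all genes. None of 6 endothelial, 8 heart or 7 acinar pancreas markers tested was called for either factor by edgeR. The summed acinar level still ran from 2.14 to 54.91 CPM on LF and from 9.929 to 17480 on HF. Both libraries high in acinar markers were HF. The summed heart level reached 30.64 CPM on LF and 650.1 on HF. The summed stellate level ran from 499.5 to 705.1 CPM fed and from 496.5 to 670.8 fasted, and the Kupffer level from 409.4 to 573.9 and from 276.4 to 749.5. Their part in the results was not tested.

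Possible partners of these enzymes were read from lists of other genes, and whether each listed gene serves these enzymes was not tested. Of 15 receptors and regulators 6 were higher and 4 lower on fasting, beside 7.99% and 7.7% of all genes tested. Nr1i3, which encodes CAR, rose by a log2 of 1.52 (adjusted p = 3.599e-16) and also rose on HF (log2 0.35, adjusted p = 0.0282). Ppara, the fatty acid receptor, rose by 0.63, and Nr3c1, the glucocorticoid receptor, and Stat5b, which carries the growth hormone signal, fell by 0.42 and 0.43 on that scale. Of 6 genes listed as electron donors 1 was higher and 2 were lower, beside the same shares. Por, which feeds electrons to all microsomal P450 enzymes, rose by a log2 of 2.36 (adjusted p = 1.878e-13), and the cytochrome b5 Cyb5b and the reductase Cyb5r3 fell by 1.44 and 0.97. The other cytochrome b5 listed, Cyb5a, did not pass on fasting (log2 0.13, adjusted p = 0.27). On HF Pgrmc1 (log2 0.42, adjusted p = 0.00711) and Cyb5a (log2 0.28, adjusted p = 0.0328) were higher, beside 1.78% of all genes.

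Of 11 tested genes of haem synthesis and breakdown, 2 were higher on fasting, beside 7.99% of all genes, and none was called for diet. They were Alas1, the rate-limiting enzyme of haem synthesis (log2 1.75, adjusted p = 0.00392), and Cpox (log2 0.84, adjusted p = 2.564e-09). Of 14 other phase I enzymes 5 were higher and 3 lower on fasting, beside 7.99% and 7.7% of all genes. On HF 4 of the 14 were higher, beside 1.78%. The epoxide hydrolases Ephx2 and Ephx1 rose on fasting by a log2 of 0.90 and 0.63. The aldehyde oxidase Aox3 and the carboxylesterase Ces1g fell on fasting (log2 -0.87 and -0.68) and were higher on HF (log2 1.04 and 1.07).

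The library labelled WT LF fed replicate 2 held another mix of members than the other WT LF fed mice. Of the 37 members 17 lay below and 2 above every other library. Cyp2d9 was at 69.14 CPM against 733.9 to 824.6 in the other 3 mice, Cyp2c37 at 3.41 against 97.89 to 122.5, and Cyp2c54 at 2.79 against 123.5 to 164.1. Cyp2e1 was at 314.4 CPM against 1600 to 1819. In contrast, Cyp3a11 was at 2192 CPM against 625.3 to 667.6.

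Of the female-predominant genes Cyp2a4, below the filter elsewhere, had 347 counts there, against at most 15 in the 30 libraries used. Cyp2b9 had 99 counts (30.7 CPM), inside the range of the others, which reached 42.24 CPM. Cyp2c40 had 2 counts, Cyp2c69 had 1, and Cyp2b13 and Cyp3a44 had 0. The labels call the mouse male, and Ddx3y had 420 counts, within the 313 to 671 of the other libraries, and Xist had 1 against 0 to 2. Heart and acinar pancreas markers summed to 10.85 and 6.51 CPM. Stellate cell markers summed to 1275 CPM there, against 496.5 to 705.1 in the 30 libraries, and hepatocyte markers to 48370. The part of these markers in the result was not tested.

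**Figure D5:**
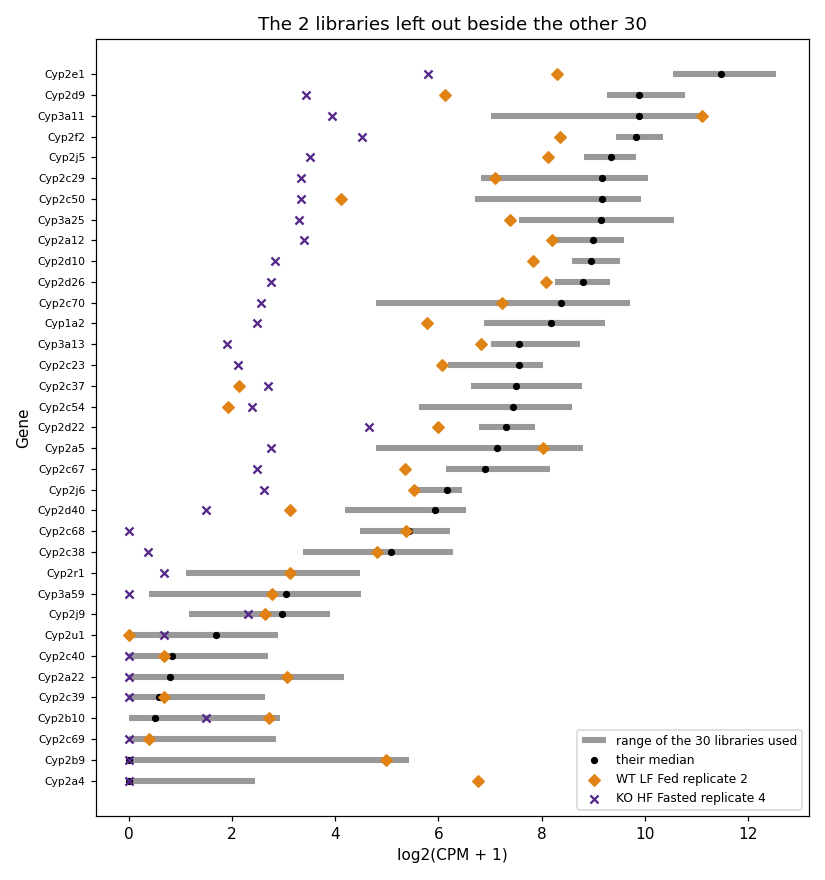
Level as log2(CPM + 1) (x axis) of Cyp2a4 and the members that reached 4 CPM in any of the 30 libraries used (y axis) in the 2 libraries left out, with the range (grey bar) and median (black point) of those 30. The WT LF fed library (orange diamonds) lies left of the grey bar for Cyp2e1, at 314.4 CPM, and right of it for Cyp2a4, at 107.6 CPM, and the KO HF fasted library (purple crosses) lies left of it for the higher genes.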

How the data were processed

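Male mouse livers of 8 groups (4 mice each) were sequenced by the authors as QuantSeq 3′ libraries with single reads. Per the submitters' processing notes and the study's methods, reads were aligned with HISAT 0.1.5 to GRCm38, sorted with SAMtools 1.2 and assigned with HTSeq 0.6.1p1, and the authors deposited raw counts per Ensembl gene. Counts include only uniquely assigned reads, so close copies can lose reads. Symbols came from GENCODE vM21, in which 19913 of 20076 IDs matched.

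Counts were tested with edgeR 4.0.16 (R 4.3.3) on 8 group means with TMM scaling, robust quasi-likelihood and genes at 1 CPM in at least 4 libraries, tested first on simulated data. The replicates are separate mice, and no 2 agreed within counting noise. The members and lists were chosen with earlier results of these data known. Named genes were members past an adjusted p of 0.05, the leading member of each subfamily by mean CPM and Cyp genes of the marker lists. Of each other list, up to 4 genes past that threshold were named, smallest p first. Cyp2d10, Cyp2c39, Cyp2a5 and Cyb5a were added after their values were seen. DESeq2 1.42.0, other scalings and filters, lane, age, the replicate number, the 2 libraries left out and each used library in turn were tried. Intervals of summed counts cover counting error only. RefSeq promoter windows are on GRCm38.p6. No protein sequences were used here. The values of 1 marker gene are not reported here.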

Additional observations from a re-analysis of the deposited data

Results flagged for a closer look

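Within groups of 4 mice, a single mouse lay far from the others in 8 of 120 sets of values, and chance flags about 1 in 20. Summed Cyp2j was 715.4 CPM in KO HF fed replicate 4 (others 832.3 to 846.9) and 505.0 in WT LF fasted replicate 2 (others 577.5 to 586.0), and Cyp2j5 was 629.9 in KO HF fed replicate 4 (others 750.4 to 770.0). Cyp3a13 was 230.5 CPM in WT HF fed replicate 2 (others 143.6 to 146.8), and Cyp2c38 was 76.09 in WT HF fasted replicate 1 (others 41.45 to 43.94). Cyp2d9 was 1179 CPM in KO LF fed replicate 2 (others 796.1 to 856.3), 603.2 in WT HF fed replicate 1 (others 758.5 to 773.6) and 1546 in WT LF fasted replicate 4 (others 983.0 to 1005).

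The fasting response differed between diets, by the interaction term of edgeR, in Cyp2c23 (log2 0.98), Cyp2c67 (0.90), Cyp2c70 (2.16) and Cyp3a13 (-0.66). Reads also fell on pseudogenes outside the comparisons, with at most 21 counts in a library for Cyp2d41-ps, 15 for Cyp2d37-ps and 5 for Cyp2c53-ps. Cyp2a4 had 347 counts in the left-out library labelled WT LF fed replicate 2.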

How the results depend on the processing

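Counts are members called. With all 32 libraries fasting called 5 in place of 15, diet 0 in place of 11, fasting in KO LF 2, WT LF 1, KO HF 0 and WT HF 0, diet in KO fasted 0 and WT fasted 0, and the diet by fasting term 0. With only the heart-like library left out these were 8 for fasting, 3 for diet, 5 in KO LF, 0 in KO HF, 0 in WT HF, 1 for diet in KO fasted and 1 for the diet by fasting term. Lane 7 alone called 2 for fasting and 0 for diet, lane 8 alone 4 for diet, and lane as a term 7 for diet. DESeq2 called 13 for fasting in WT LF, and for diet 1 in WT fed, 5 in KO fasted and 6 in WT fasted. Age as a term gave 0 for fasting in WT HF and 2 for diet in WT fasted, as did no count filter for the latter (2).

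Leaving out each library gave 13 to 17 for fasting, 5 to 12 for diet, 7 to 10 for fasting in KO LF, 4 to 11 in WT LF, 0 to 1 in KO HF and 0 to 1 in WT HF. It gave for diet 0 to 1 in WT fed, 1 to 3 in KO fasted and 1 to 3 in WT fasted, and 2 to 5 for the diet by fasting term. The diet count fell to 5 without KO HF fasted replicate 2 and to 6 without WT HF fasted replicate 1, KO HF fed replicate 2, WT LF fasted replicate 2, WT LF fed replicate 1 or KO LF fasted replicate 4. It fell to 7 without WT LF fasted replicate 1, KO LF fed replicates 1 or 2, WT HF fasted replicates 2 or 4, WT LF fed replicate 3, KO HF fed replicate 3 or WT HF fed replicate 4. Fasting in WT LF gave 11 without KO LF fasted replicate 1 and 4 without WT LF fed replicate 3, and the diet by fasting term gave 2 without KO HF fasted replicate 1 or WT LF fed replicate 3. The cause was not tested.

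Summed levels moved by more than 1 SD only with all 32 libraries, where in WT LF fed mice those of Cyp2c, Cyp2d, Cyp2e and all members were lower and that of Cyp3a was higher, and those of Cyp2d, Cyp3a and all members were lower in KO HF fasted mice. None of the 23 members called for fasting, diet or their interaction changed direction in any alternative fit of the contrast that called it. Named members without a call were not followed in this way. Replicate numbers did not pair the mice (median correlation 0.00324 for equal numbers), and with the replicate block 16 members were called for fasting, 8 for diet and 3 for the diet by fasting term. Depth limited the 13 members below 10 CPM.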
